A study of Homo sapiens with 8 samples.

Results

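The genes examined were 10 fibroblast growth factor (FGF) ligand genes, FGF1, FGF2, FGF5, FGF7, FGF9, FGF10, FGF11, FGF18, FGF19 and FGF21, found by matching the Ensembl identifiers of a table of 37441 genes to these symbols. All 10 were present in the table. Their transcripts were measured by RNA sequencing in the non-small cell lung cancer lines NCI-H1581 and NCI-H1703, which respond to FGF receptor (FGFR) inhibition, and in the resistant variants NCI-H1581R and NCI-H1703R derived from them. The variants were obtained by culture with stepwise increases of CPL304110, an inhibitor of FGFRs, from 50 nM up to 2.5 µM for NCI-H1581R and up to 5 µM for NCI-H1703R. NCI-H1581 and NCI-H1581R were grown in DMEM/F12 and NCI-H1703 and NCI-H1703R in RPMI 1640, so line and medium cannot be told apart. Cells were harvested 24 h after the medium was renewed, and the methods do not state whether that medium held the inhibitor, so presence of the inhibitor and resistance cannot be told apart either. Each line gave 1 resistant variant, and each of the 4 variants was measured in 2 libraries.

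FGFs are small proteins that bind FGFRs, which are tyrosine kinases on the cell surface, with heparan sulphate as a co-factor. Binding activates the RAS and MAPK cascade, which drives growth and also raises its own feedback inhibitors, such as the Sprouty proteins. In the developing lung, FGF10 from the mesenchyme instructs the epithelium to branch through the IIIb splice form of FGFR2, and FGF7 acts on the same form. FGF1 and FGF2 leave the cell without a signal peptide. FGF5, FGF9 and FGF18 are secreted paracrine factors. FGF19 and FGF21 are endocrine and need the co-receptor KLB. FGF11 is a member of the intracellular FGF homologous factors, which bind sodium channels and are not classical receptor ligands. In squamous lung tumours the FGFR1 gene is a recurrent target of amplification.

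Totals ranged from 33800389 to 40031710 counts per library, so that a floor of 3 counts corresponded to 0.0749 to 0.0897 CPM, counts scaled to library size. This floor covers counting error only. The mesenchymal marker VIM had 99631 to 244224 counts in every library. The other mesenchymal marker, CDH2, had 1626 to 1857 counts in NCI-H1703 but 41 to 44 in NCI-H1703R. It had 87 to 119 counts in NCI-H1581 and 38 to 45 in NCI-H1581R. The epithelial marker EPCAM had 284 to 537 counts in the NCI-H1581 and NCI-H1581R libraries and 3 to 26 in those of NCI-H1703 and NCI-H1703R. KRT18 went the other way between the sensitive lines, with 43 to 70 counts in NCI-H1581 and 2188 to 2380 in NCI-H1703. The other epithelial markers had, in NCI-H1581 and NCI-H1703, 81 to 100 and 147 to 269 counts (KRT8), 40 to 67 and 66 to 87 (KRT19) and 18 to 46 and 34 to 44 (CDH1). The leukocyte marker PTPRC had 0 to 15 counts and the endothelial marker CDH5 0 or 1. Of the other immune markers, CD3E had 0 counts and LYZ 8 to 85, and the endothelial marker PECAM1 had 0 to 18. With resistance, SOX2 and TP63 of 4 squamous markers and NKX2-1 of 3 adenocarcinoma markers rose in NCI-H1581R, and EPCAM of 5 epithelial markers fell. Of all genes, 7.63% were called higher and 7.44% lower in that line. In NCI-H1703R, KRT18 of the epithelial markers, CDH2 of 2 mesenchymal markers and SOX2 fell, beside 7.06% of all genes called higher and 7.67% lower. No tested immune or endothelial marker was called in either line. The part of these marker changes in the ligand results was not tested. In bulk RNA, fewer expressing cells and less RNA per cell cannot be told apart.

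The start regions of the 4 ligands on which the results turned are shown first. Each window runs from 250 bases before to 50 bases after the transcript start given by RefSeq for GRCh38.p14, 5′ to 3′ on the gene's strand, with CG dinucleotides in capitals. RefSeq windows were found for 8 of the 10 genes, and none for FGF9 and FGF19. Where a gene had several windows, only the first listed was used, so other starts were not searched. FGF5 lies at chr4:80266338-80266637 on the plus strand, FGF10 at chr5:44389371-44389670 on the minus strand, FGF2 at chr4:122826581-122826880 on the plus strand and FGF7 at chr15:49422992-49423291 on the plus strand.
FGF5: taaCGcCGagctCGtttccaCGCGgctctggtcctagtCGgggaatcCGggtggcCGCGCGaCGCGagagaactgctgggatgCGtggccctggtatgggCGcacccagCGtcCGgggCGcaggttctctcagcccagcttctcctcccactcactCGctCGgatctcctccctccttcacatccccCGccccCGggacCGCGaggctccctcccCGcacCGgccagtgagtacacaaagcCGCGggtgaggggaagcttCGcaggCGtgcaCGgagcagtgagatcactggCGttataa
FGF10: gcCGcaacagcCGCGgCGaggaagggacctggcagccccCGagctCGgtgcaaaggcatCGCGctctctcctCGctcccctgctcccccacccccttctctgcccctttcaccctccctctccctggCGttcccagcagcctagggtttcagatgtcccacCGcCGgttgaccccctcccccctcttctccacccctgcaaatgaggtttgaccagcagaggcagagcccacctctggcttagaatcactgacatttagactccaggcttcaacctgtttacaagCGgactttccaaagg
FGF2: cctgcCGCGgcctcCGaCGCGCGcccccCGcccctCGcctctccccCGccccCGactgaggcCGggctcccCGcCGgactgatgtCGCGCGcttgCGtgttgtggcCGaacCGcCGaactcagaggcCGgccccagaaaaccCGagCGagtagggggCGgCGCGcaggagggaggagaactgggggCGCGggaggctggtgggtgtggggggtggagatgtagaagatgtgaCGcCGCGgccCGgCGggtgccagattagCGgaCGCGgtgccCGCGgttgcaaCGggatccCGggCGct
FGF7: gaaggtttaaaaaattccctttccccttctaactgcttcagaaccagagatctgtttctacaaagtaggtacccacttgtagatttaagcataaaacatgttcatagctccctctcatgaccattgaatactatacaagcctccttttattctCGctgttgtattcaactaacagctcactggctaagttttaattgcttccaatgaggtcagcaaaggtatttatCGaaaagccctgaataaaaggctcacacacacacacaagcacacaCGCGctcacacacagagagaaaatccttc

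The windows differed in composition. FGF2 held 41 CG dinucleotides and FGF5 held 31, against a median of 14 over all 35116 windows of the same length. FGF10 held 13 and FGF7 only 4. The remaining windows held 38 for FGF18, 23 for FGF11, 2 for FGF1 and 1 for FGF21. A search of both strands for 4 motifs found none in any of the 8 windows. These letters were TATAAA, present in 11.5% of all windows, TGANTCA in 7.71%, CCGGAAG in 10.3% and CACGTG in 7.26%.

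Of the 10 ligands, 3 had under 10 counts in every library and were too rare to describe further. FGF9, a paracrine factor, was at 0 counts in all 8 libraries, which allows a level of up to 0.0749 to 0.0897 CPM. FGF1, which binds every FGFR, had 2 and 0 counts in NCI-H1581, 2 and 0 in NCI-H1581R, 3 and 2 in NCI-H1703 and 0 and 0 in NCI-H1703R. FGF21, an endocrine factor of metabolism, had 0 and 0 counts in NCI-H1581, 0 and 9 in NCI-H1581R, 1 and 2 in NCI-H1703 and 3 and 9 in NCI-H1703R. A gene was tested when it had at least 10 counts over the 8 libraries. By this limit 8 ligands were tested, FGF21 among them, and FGF1 and FGF9 were not.

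Of the others, FGF10 and FGF11 were high in the NCI-H1581 pair only. FGF10 had 2311 and 3148 counts in NCI-H1581, 11754 and 11346 in NCI-H1581R, and between 3 and 7 in the 4 libraries of NCI-H1703 and NCI-H1703R. FGF11 had 5796 and 6518 counts in NCI-H1581 and 8571 and 7834 in NCI-H1581R, against 22 and 9 in NCI-H1703 and 5 and 9 in NCI-H1703R. FGF10 lies on the minus strand of chromosome 5 and FGF11 at chr17:7438273-7444937, where 4169 of its 5080 exon bases are shared with a long non-coding RNA gene on the same strand, so that its reads may not all be its own. Both genes were abundant in 4 libraries and close to absent in the other 4, as the plot of counts by ligand shows.

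FGF2 and FGF5 were high in NCI-H1703 instead, and FGF2 in NCI-H1703R as well. FGF2 had 10 and 17 counts in NCI-H1581 and 76 and 42 in NCI-H1581R, against 2442 and 2899 in NCI-H1703 and 1893 and 2177 in NCI-H1703R. FGF5, which is known from hair growth, had 1786 and 1571 counts in NCI-H1703, but 8 and 3 in NCI-H1703R, 2 and 6 in NCI-H1581 and 3 and 3 in NCI-H1581R. FGF5 was thus high in only 2 of the 8 libraries, those of sensitive NCI-H1703.

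The remaining ligands were low everywhere. FGF7 had 0 and 0 counts in NCI-H1581, 62 and 49 in NCI-H1581R, 17 and 15 in NCI-H1703 and 4 and 4 in NCI-H1703R. FGF18 had 69 and 68 counts in NCI-H1581, 21 and 37 in NCI-H1581R, 12 and 13 in NCI-H1703 and 7 and 3 in NCI-H1703R. FGF19 had 5 and 0 counts in NCI-H1581 and 12 and 8 in NCI-H1581R, and was at 0 in NCI-H1703 and NCI-H1703R.

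**Figure D1:**
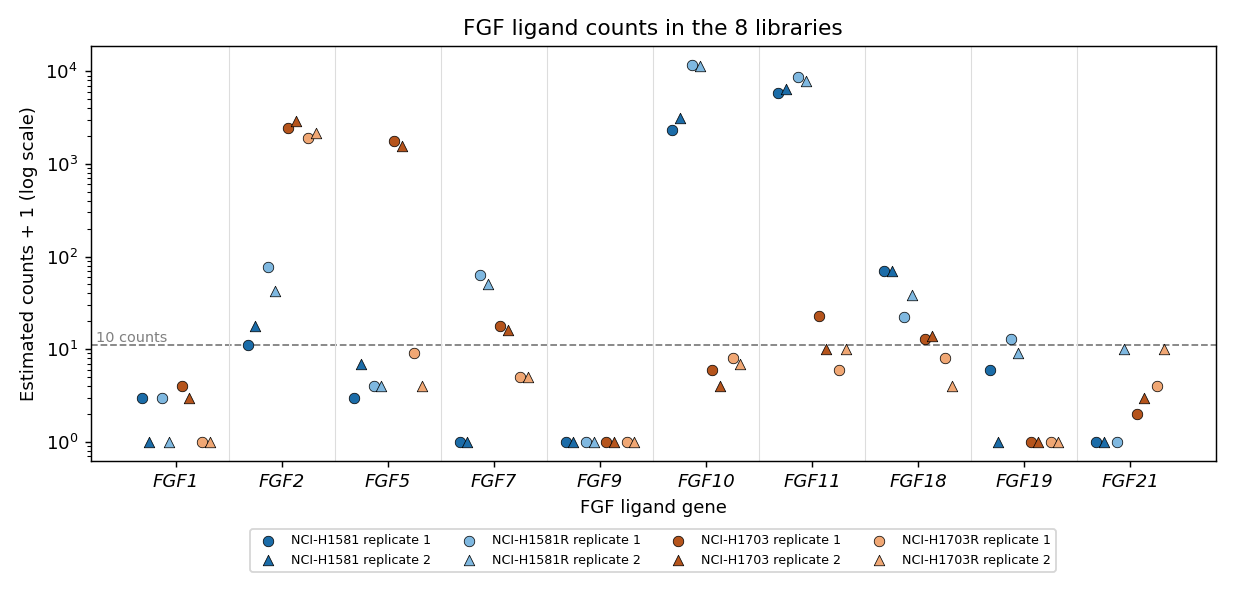
Estimated counts plus 1 of the 10 FGF ligand genes on a log axis, with circles for replicate 1, triangles for replicate 2 and a dashed line at 10 counts. FGF10 and FGF11 are high in the NCI-H1581 and NCI-H1581R libraries, FGF2 in those of NCI-H1703 and NCI-H1703R, and FGF5 in those of NCI-H1703, at 1786 and 1571 counts.

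Levels of different genes were compared as TPM, which divides counts by length, here the merged exon length of GENCODE 44. The summed TPM of the 10 ligands was 145 and 161 in NCI-H1581 and 330 and 366 in NCI-H1581R. It was 70.8 and 83.3 in NCI-H1703 and 30.5 and 33.7 in NCI-H1703R. The sum was higher in resistant than in sensitive libraries of the NCI-H1581 pair and lower in those of the NCI-H1703 pair, with no overlap in either. No test was made of these sums.

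The gene with the largest share also differed. In NCI-H1581, FGF11 made up 72.4% ± 2.28 (SD, n = 2) of the sum, FGF10 25.3% ± 2.63 and FGF18 2.06% ± 0.256. In NCI-H1581R, FGF10 made up 52.2% ± 0.869 and FGF11 46.6% ± 1.02. The order in NCI-H1581R depended on the length used: with the longest transcript in place of the merged exons, FGF10 made up 37.0% and FGF11 62.2%. The share of FGF10 was larger in NCI-H1581R than in NCI-H1581 with either length, at 15.4% in NCI-H1581 by the longest transcript. FGF11 is not a classical receptor ligand and shares exon bases with another gene. Apart from FGF11, FGF10 was highest in both, at 34.1 and 43.6 TPM in NCI-H1581 and 170 and 193 TPM in NCI-H1581R. FGF18 was at 3.26 and 3.01 TPM in NCI-H1581 and 0.973 and 2.02 TPM in NCI-H1581R, so FGF10 led the rest of the sum in either variant. In NCI-H1703, FGF2 made up 57.0% ± 5.21 and FGF5 41.0% ± 4.93. In NCI-H1703R, FGF2 alone made up 96.5% ± 0.158, with every other ligand at a mean of 1.39% or less.

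**Figure D2:**
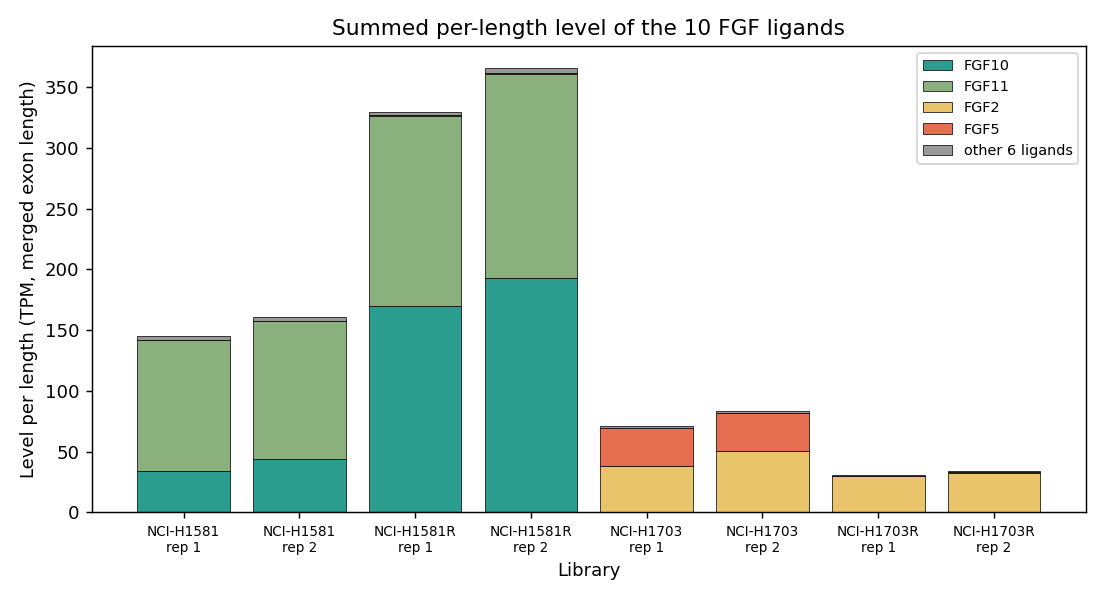
Summed per-length level (TPM) of the 10 ligands in each library, stacked by gene. FGF10 and FGF11 fill the bars of NCI-H1581 and NCI-H1581R, which reach 366, FGF2 and FGF5 those of NCI-H1703, and FGF2 nearly alone those of NCI-H1703R, at 30.5 and 33.7.

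The next comparison asked which ligands changed with acquired resistance in NCI-H1581. FGF10 and FGF7, the epithelial growth factors that share the IIIb form of FGFR2, were both higher in NCI-H1581R. Calls were made with edgeR's quasi-likelihood test at a Benjamini-Hochberg adjusted p under 0.1 over 18203 genes, of which 15.1% were called, 7.63% higher and 7.44% lower. Thus 2 of the 8 tested ligands were called, both higher.

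FGF10 rose from 73.6 ± 7.09 CPM (SD, n = 2) in NCI-H1581 to 300.3 ± 17.0 CPM in NCI-H1581R, 4.10-fold (log2 fold change 2.04, SE 0.18, edgeR adjusted p = 0.000854). FGF10 lies at chr5:44300247-44389706 and shares 182 exon bases with the antisense gene FGF10-AS1, which was not analysed here. Its nearest tested neighbours did not pass the test: NNT had 280 and 1049 counts in NCI-H1581 and 457 and 457 in NCI-H1581R, and MRPS30 had 17329 and 21751 against 25726 and 21650.

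FGF7 rose from 0 counts in both NCI-H1581 libraries to 1.45 ± 0.285 CPM in NCI-H1581R, which is at least 17.6-fold higher against a floor of 3 counts per library (edgeR adjusted p = 0.0215). The fitted log2 fold change, 8.77 with SE 1.50, depends on the prior count and is no bound. FGF7 lies at chr15:49423237-49488775. At 62 and 49 counts it made up 0.245% of the ligand sum in NCI-H1581R. Of its nearest tested neighbours, DTWD1 was also higher, with 110 and 224 counts in NCI-H1581 and 375 and 421 in NCI-H1581R (log2 fold change 1.21, SE 0.31, edgeR adjusted p = 0.0631). FAM227B, on the opposite strand with no shared exon base, had 71 and 109 counts against 162 and 163 and did not pass (edgeR adjusted p = 0.193).

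FGF2 lay just outside the threshold in this line. It had a mean of 0.361 CPM in NCI-H1581 and 1.54 CPM in NCI-H1581R, with a log2 fold change of 2.07 (SE 0.63, edgeR adjusted p = 0.101). With the replicate number as a block the adjusted p was 0.0725, with 18.1% of all genes called. It was 0.0916 with DESeq2, by which 17.7% of all genes were called, 0.0463 where every library had to hold at least 10 counts and 0.0345 in a single edgeR model of all 8 libraries. FGF2 did not pass with RLE normalisation (edgeR adjusted p = 0.104) or without a low-count filter (edgeR adjusted p = 0.106). With a replicate left out its log2 fold change lay between 1.55 and 2.44. The gene lies at chr4:122826682-122898236 and shares 804 exon bases with NUDT6 on the opposite strand, and since it is not stated whether the libraries kept strand, its reads cannot be told apart from those of NUDT6 there. NUDT6 had 127 and 128 counts in NCI-H1581 and 149 and 154 in NCI-H1581R.

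The other 3 ligands described in this line were not called. FGF11 differed by a log2 fold change of 0.36 (SE 0.16, edgeR adjusted p = 0.241), FGF18 by -1.29 (SE 0.48, edgeR adjusted p = 0.161) and FGF19 by 1.89 (SE 1.27, edgeR adjusted p = 0.424). FGF18 passed, lower, where every library had to hold at least 10 counts (edgeR adjusted p = 0.0886) and in the single model (edgeR adjusted p = 0.0502). It did not pass with DESeq2 (adjusted p = 0.235) or with the replicate block (edgeR adjusted p = 0.148). FGF5 and FGF21 had under 10 counts in all 4 libraries, and their fold changes are not described.

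The same comparison in NCI-H1703 gave FGF5 alone. FGF5 fell from 47.6 ± 0.917 CPM in NCI-H1703 to 0.145 ± 0.0936 CPM in NCI-H1703R, 314-fold (log2 fold change -8.29, SE 0.24, edgeR adjusted p = 0.000199). Of all genes 14.7% were called in this line, 7.06% higher and 7.67% lower, and of the 8 tested ligands 1, lower.

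FGF5 lies at chr4:80266639-80336680, and the nearest tested gene on each side was also lower in NCI-H1703R. PRDM8, which encodes a PR domain zinc finger protein and starts 82760 bases away, had 112 and 77 counts in NCI-H1703 and 17 and 24 in NCI-H1703R (log2 fold change -2.27, SE 0.41, edgeR adjusted p = 0.0286). CFAP299, which starts 69091 bases away on the other side and encodes a cilia and flagella associated protein, had 24 and 24 counts against 1 and 0 (log2 fold change -5.34, SE 1.04, edgeR adjusted p = 0.0308). CFAP299 shares 136 exon bases with FGF5 on the same strand, so its few reads cannot be told apart from those of FGF5 there. In NCI-H1581 and NCI-H1581R, PRDM8 had 0 or 1 counts and CFAP299 0 to 5.

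FGF2, the main ligand of this line, had 76.4 ± 14.6 CPM in NCI-H1703 and 53.7 ± 5.24 CPM in NCI-H1703R. The log2 fold change of -0.48 (SE 0.16) was not called (edgeR adjusted p = 0.142). With the replicate block, it passed (edgeR adjusted p = 0.00212), and so it did with DESeq2 (adjusted p = 0.0368). It did not pass in the single model (edgeR adjusted p = 0.194) or with RLE normalisation (edgeR adjusted p = 0.15). With a replicate left out the log2 fold change lay between -0.68 and -0.25. NUDT6 had 254 and 225 counts against 252 and 245.

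FGF7 was lower on average in NCI-H1703R, the opposite direction to NCI-H1581R, but was not called (log2 fold change -2.04, SE 0.66, edgeR adjusted p = 0.123). It passed with the replicate block (edgeR adjusted p = 0.0744), which made 3 of 8 ligands called in this line, beside 34.9% of all genes with the block. With DESeq2, FGF7 did not pass (adjusted p = 0.329). FGF11 and FGF18 did not pass, with log2 fold changes of -1.20 (SE 0.73, edgeR adjusted p = 0.385) and -1.37 (SE 0.72, edgeR adjusted p = 0.312). FGF10 and FGF21 had under 10 counts in these libraries and FGF19 had 0, so no change is described.

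**Figure D3:**
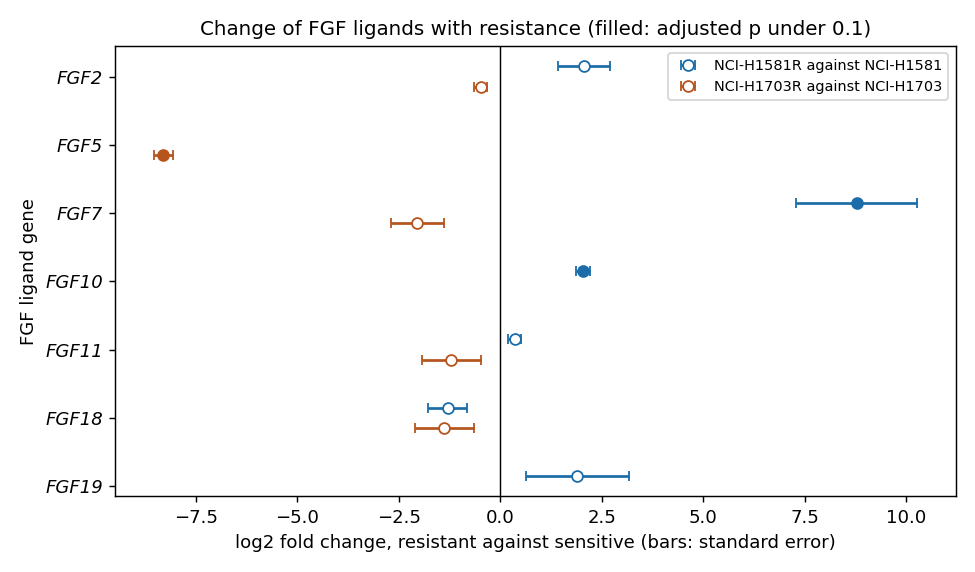
Log2 fold changes of the ligands, resistant against sensitive variant, in NCI-H1581 (blue) and NCI-H1703 (orange), with standard errors as bars and filled points where the edgeR adjusted p was under 0.1. FGF7 and FGF10 are filled to the right of 0 and FGF5 to the left, and the fitted value of FGF7 in NCI-H1581R rests on a group at 0 counts.

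Whether the lines differed in these changes was tested as an interaction in a fit of all 8 libraries, in which 15.4% of all genes were called. The change of FGF2 was lower in NCI-H1703 than in NCI-H1581 (difference of log2 fold changes -2.56, SE 0.58, edgeR adjusted p = 0.0257), although neither line passed on its own. Without NCI-H1581R replicate 1 this difference was -2.04 and did not pass (edgeR adjusted p = 0.123). The differences of FGF5, -7.86 (SE 1.50, edgeR adjusted p = 0.00843), and FGF7, -10.8 (SE 1.52, edgeR adjusted p = 0.00388), also passed. That of FGF5 rests on 2 to 6 counts in the NCI-H1581 pair, where no change is described, and the size of that of FGF7 depends on the prior count.

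FGF10 was called in NCI-H1581 and had under 10 counts in NCI-H1703, and its difference of -1.45 (SE 0.82) did not pass (edgeR adjusted p = 0.345). FGF11 did not pass either, at -1.58 (SE 0.64, edgeR adjusted p = 0.181), though it did with DESeq2 (adjusted p = 0.0190) and with legacy quasi-dispersions (edgeR adjusted p = 0.0879). FGF18 was lower on average in both lines, and its difference of -0.10 (SE 0.83) did not pass (edgeR adjusted p = 1).

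Between the sensitive lines, 6 of the 8 tested ligands were called, beside 62.9% of all genes, a share of a similar order. NCI-H1703 exceeded NCI-H1581 in FGF2 (log2 fold change 7.69, SE 0.31, edgeR adjusted p = 1.12e-06), FGF5 (8.73, SE 0.28, edgeR adjusted p = 1.82e-07) and FGF7, at least 5.54-fold against the floor (edgeR adjusted p = 0.0203). It was lower in FGF10 (-9.30, SE 0.28, edgeR adjusted p = 1.55e-07), FGF11 (-8.56, SE 0.20, edgeR adjusted p = 1.1e-07) and FGF18 (-2.38, SE 0.51, edgeR adjusted p = 0.00561).

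Between the resistant variants, again 6 of 8 were called, beside 52.5% of all genes. FGF2 was higher in NCI-H1703R than in NCI-H1581R (log2 fold change 5.16, SE 0.31, edgeR adjusted p = 0.000194), and FGF10 (-10.71) and FGF11 (-10.11) were lower. FGF7, higher in NCI-H1703 among the sensitive lines, was lower in NCI-H1703R among the resistant variants (log2 fold change -3.70, SE 0.59, edgeR adjusted p = 0.00509). FGF18 was lower by a log2 fold change of -2.45 (edgeR adjusted p = 0.0385), but without NCI-H1703R replicate 2 it did not pass (edgeR adjusted p = 0.143). FGF19 was at least 3.29-fold lower against the floor (edgeR adjusted p = 0.0479), and did not pass without NCI-H1703R replicate 1 (edgeR adjusted p = 0.104). FGF5, called between the sensitive lines, had 3 to 8 counts in these libraries.

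The 12 other FGF genes of the family were examined beside the ligands. In NCI-H1581R, FGF8, a ligand active in limb and brain patterning, was called, from 49 and 48 counts in NCI-H1581 to 5327 and 6614 in NCI-H1581R (log2 fold change 6.88, SE 0.25, edgeR adjusted p = 4.16e-05). FGF20, of the FGF9 subfamily and named after its values were seen, was called too, from 1070 and 1111 counts to 3379 and 3235 counts (log2 fold change 1.54, SE 0.17, edgeR adjusted p = 0.00234). These were the 2 of 8 tested that rose, beside 7.63% of all genes. In NCI-H1703R 1 of 8 fell, beside 7.67% of all genes. It was FGF12, an intracellular homologous factor, from 378 and 317 counts to 123 and 134 counts (log2 fold change -1.51, SE 0.18, edgeR adjusted p = 0.00841).

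By merged exon length, FGF8 was at 342 and 499 TPM in the NCI-H1581R libraries, beside 330 and 366 TPM for the 10 ligands together. Summed over all 22 FGF genes, the level was 204 and 218 TPM in NCI-H1581 and 843 and 1057 TPM in NCI-H1581R, where FGF8 made up 40.6% and 47.2%. In NCI-H1703 and NCI-H1703R the sum over the 22 genes was 77.7 and 89.5 TPM and at 35.0 and 36.9 TPM.

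The receptors for these ligands changed as well. In NCI-H1581R, FGFR2, whose IIIb form binds FGF7 and FGF10, had 189 and 38 counts against 6319 and 7232 in NCI-H1581 (log2 fold change -5.95, SE 0.55, edgeR adjusted p = 0.0011). FGFR1 had 1017 and 1383 counts against 6982 and 6839 (log2 fold change -2.59, SE 0.21, edgeR adjusted p = 0.000629). KLB, the co-receptor for FGF19 and FGF21, rose from 4 and 12 counts to 51 and 76 counts (log2 fold change 2.92, SE 0.66, edgeR adjusted p = 0.0394). The rise of FGF10 and FGF7 and the fall of FGFR2 were thus seen in the same libraries, and counts per gene do not separate the splice forms of FGFR2.

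FGFR3, FGFR4 and FGFRL1, a receptor without a kinase domain, did not pass in NCI-H1581R. FGFR3 had 104 and 131 counts against 186 and 281, and FGFR4 4904 and 4311 against 4867 and 3754. FGFRL1 had 1177 and 1199 counts against 797 and 973. The receptor list thus had 1 gene called higher and 2 lower of 6 tested, beside 7.63% and 7.44% of all genes, and its median log2 change was -0.32, beside 0.04.

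In NCI-H1703R the receptor that rose was FGFR3, from 2491 and 1852 counts to 13653 and 11077 counts (log2 fold change 2.45, SE 0.15, edgeR adjusted p = 0.00135). FGFR1 fell from 31031 and 26898 counts to 21044 and 21773 counts (log2 fold change -0.51, SE 0.10, edgeR adjusted p = 0.032). FGFR2 had 513 and 104 counts against 385 and 183, FGFR4 1062 and 949 against 1026 and 986, and KLB 5 and 3 against 4 and 4. FGFRL1, at 864 and 720 against 696 and 576, did not pass without the replicate block but passed with it (edgeR adjusted p = 0.0237). The receptor list had 1 gene called higher and 1 lower of 6, beside 7.06% and 7.67% of all genes, with a median of -0.12, beside 0.00.

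**Figure D4:**
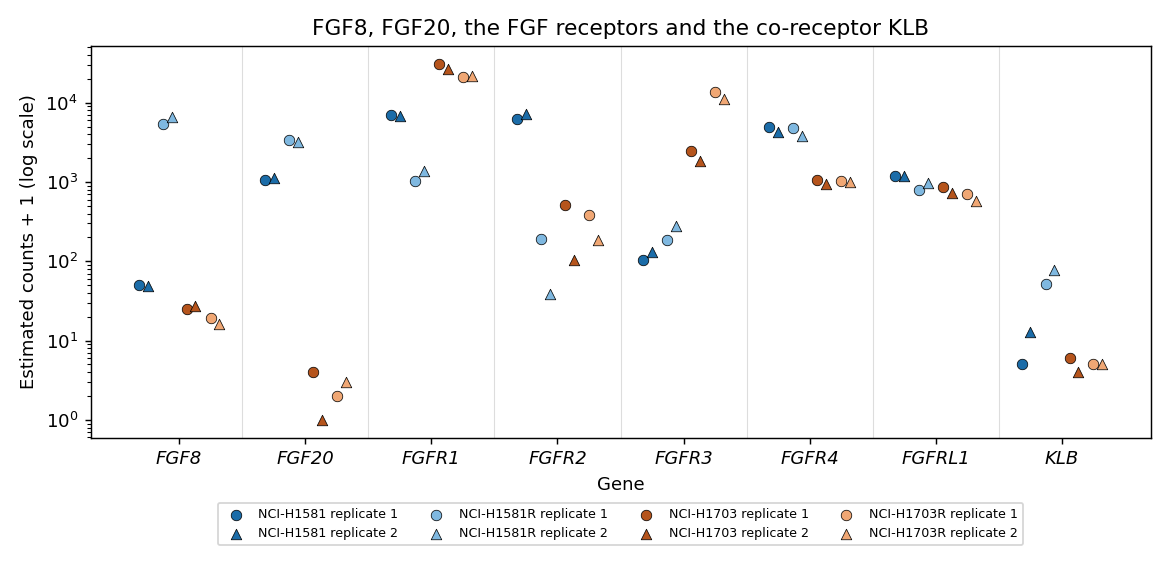
Estimated counts plus 1 on a log axis for FGF8, FGF20, the FGF receptors and the co-receptor KLB, with circles for replicate 1 and triangles for replicate 2. In NCI-H1581R, FGF8 reaches 5327 and 6614 counts while FGFR2 is at 189 and 38, and in NCI-H1703R FGFR3 is at 13653 and 11077.

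Genes for proteins that hold FGFs at the cell surface or modify heparan sulphate changed in both directions. In NCI-H1581R, 5 of 26 tested rose and 2 fell, beside 7.63% and 7.44% of all genes. The largest rise was that of GPC3, a heparan sulphate proteoglycan, from 1161 and 2168 counts to 36110 and 50124 counts (log2 fold change 4.66, SE 0.32, edgeR adjusted p = 0.000354), and the largest fall that of the syndecan SDC4, from 1766 and 1732 to 558 and 410 (-1.91, SE 0.23, edgeR adjusted p = 0.00341). In NCI-H1703R, 2 of 26 rose and 6 fell, beside 7.06% and 7.67% of all genes. There the sulphatase SULF2, which trims heparan sulphate, fell from 204 and 195 counts to 28 and 27 counts (log2 fold change -2.93, SE 0.30, edgeR adjusted p = 0.0047), and the sulphotransferase NDST2 rose by 0.69 (SE 0.17, edgeR adjusted p = 0.0668). The median log2 fold changes of the list were -0.06 and -0.10, beside 0.04 and 0.00 over all genes.

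The 9 reported genes for release and intracellular partners of FGF1, FGF2 and FGF11 were set beside the share of all genes called. With edgeR this share was 15.1% in NCI-H1581R and 14.7% in NCI-H1703R. In NCI-H1703R, MAPK8IP2, a scaffold that binds FGF homologous factors, rose by 0.69 (SE 0.09, edgeR adjusted p = 0.0103) and the synaptotagmin SYT1, of the FGF1 release complex, fell from 853 and 790 counts to 357 and 388 (-1.21, SE 0.12, edgeR adjusted p = 0.00482). In NCI-H1581R, 0 of the 9 were called with edgeR, 3 had an unadjusted p under 0.05 and 1 was called with DESeq2 (17.7% of all genes). With the replicate block, 2 of 9 were called in NCI-H1581R, beside 18.1% of all genes, and 4 of 9 in NCI-H1703R, beside 34.9%. The median log2 fold changes were 0.01 and -0.02.

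Among the 10 adaptors that couple FGFRs to the cascade, GAB1 rose in NCI-H1581R (log2 fold change 1.47, SE 0.36, edgeR adjusted p = 0.0552) and SHC1 fell (-0.88, SE 0.20, edgeR adjusted p = 0.0423). Of all genes, 7.63% were called higher and 7.44% lower in that line. CRKL alone was called in NCI-H1703R, lower (log2 fold change -0.56, SE 0.09, edgeR adjusted p = 0.0205), beside 7.06% of all genes called higher and 7.67% lower. With the replicate block 3 of 10, all lower, were called there, beside 34.9% of all genes in either direction. The medians of the list were 0.14 and 0.04.

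Genes that FGF signalling is known to induce were mostly lower where called. In NCI-H1581R, 6 of 16 fell and 1 rose, beside 7.44% and 7.63% of all genes, and the list's median log2 change was -0.30, beside 0.04. EGR1, an immediate early transcription factor, fell from 1607 and 2351 counts to 59 and 43 counts (log2 fold change -5.32, SE 0.28, edgeR adjusted p = 0.000127). SPRED3, a feedback inhibitor, was the gene that rose (log2 fold change 0.67, SE 0.20, edgeR adjusted p = 0.0975) and did not pass with the replicate block (edgeR adjusted p = 0.1004).

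In NCI-H1703R, 12 of the 16 fell and 2 rose, beside 7.67% and 7.06% of all genes, and the median log2 change was -1.68, beside 0.00. SPRY1, a Sprouty feedback inhibitor, fell from 375 and 415 counts to 13 and 5 counts (log2 fold change -5.51, SE 0.39, edgeR adjusted p = 0.00167). EGR1 went the other way in this line, from 340 and 335 counts to 1118 and 1546 counts (log2 fold change 1.90, SE 0.19, edgeR adjusted p = 0.00444). FGF5, FGFR1 and most of the response genes were thus lower in the same NCI-H1703R libraries, and FGFR3 and EGR1 higher.

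The genes closest to each ligand in pattern over the 8 libraries were found by Pearson's r of log2 CPM among 12785 genes. The 8 libraries form 4 pairs, so these values describe the pattern over variants only. For FGF5 they were MT1L (r = 0.999), ARMCX1 (0.999) and CCL5 (0.997), a metallothionein family gene, a mitochondrial protein gene and a chemokine gene. For FGF10 they were ICAM4, SLC30A8 and RGS1, with r of 0.999 or more. For FGF7 they were MMP16 (0.991), NRP1 (0.990), which encodes a co-receptor of growth factors, and ADAP2 (0.988). For FGF2 they were TES, RBM24 and RFX5, at 0.998 each.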

How the data were processed

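Libraries were assigned to variants by their labels, which give the line, the variant and the replicate. Per the labels and the methods, the authors trimmed paired reads with cutadapt, estimated transcript abundance with Salmon on GRCh38, and used tximport to obtain gene values. The deposited table holds an estimated count for each gene and library as a whole number, without normalisation. Program versions, the annotation, strandedness and the tximport scaling are not given in the sources used here. Gene positions and lengths came from GENCODE 44. The members and the gene lists were chosen with earlier results of these data known. A gene of the release and partner list is not reported here.

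From the counts, two-sided quasi-likelihood tests were computed with edgeR 4.0.16 in R 4.3.3 (TMM normalisation) for the 18203 of 37441 genes with at least 10 counts over the 8 libraries, each comparison on its own 4 libraries and the difference between the lines on all 8. Genes with a Benjamini-Hochberg adjusted p under 0.1 were called. The standard error is the log2 fold change divided by the square root of F. CPM used TMM factors over all 8 libraries. Totals of 33800389 to 40031710 counts set the precision of low genes. Every ligand is named. From each pathway list, every FGF receptor and the genes with the largest called rise and fall per line are named among those with a mean of at least 1 CPM, as are the nearest tested neighbours of ligands called within a line and the 3 genes closest in pattern to a ligand.

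Replicates came from a repeat of the culture and harvest, so p-values measure the spread between such repeats of 1 derived line. Same-numbered replicates were taken as pairs in the blocked alternative. Replicate differences correlated at r = 0.125 in the NCI-H1581 pair and 0.354 in the NCI-H1703 pair (Pearson's r over 13376 genes). Between the lines r was -0.0217 to -0.388, so values of this size do not show that the pairs are real. The unblocked fit within a line has 2 residual degrees of freedom, and the block leaves fewer. Alternatives were DESeq2 1.42.0, RLE normalisation, other count filters, the block, a single model of all 8 libraries, a stricter threshold (0.05) and the omission of single replicates. Legacy quasi-dispersions and a crossed pairing of the resistant variants were added after seeing the data. The models were tested on simulated data.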

Additional observations from a re-analysis of the deposited data

Results flagged for a closer look

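Each gene given here was singled out because its change with resistance differed between the lines by the interaction term of edgeR's quasi-likelihood test (Benjamini-Hochberg adjusted p under 0.1). Differences are log2 fold changes of NCI-H1703R against NCI-H1703 minus those of NCI-H1581R against NCI-H1581. Among the ligands the difference was -2.56 for FGF2, -7.86 for FGF5 and -10.8 for FGF7, in each case lower in the NCI-H1703 pair. FGF5 had 2 to 6 counts in the NCI-H1581 pair, so its difference rests on the NCI-H1703 pair.

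In other FGF and receptor genes, the difference was -7.57 for FGF8 (edgeR adjusted p = 0.000113), 2.06 for FGFR1 (edgeR adjusted p = 0.000924), 5.76 for FGFR2 (edgeR adjusted p = 0.00849) and 1.49 for FGFR3 (edgeR adjusted p = 0.0218). In genes that carry or modify heparan sulphate, it was -5.67 for GPC3, -4.51 for SULF2 and 2.07 for SDC4 (edgeR adjusted p from 0.000625 to 0.00428). Among the intracellular partners, it was 1.24 for MAPK8IP2 (edgeR adjusted p = 0.00514). In adaptors, it was -1.26 for GAB1, 0.88 for SHC1 and -0.71 for CRKL (edgeR adjusted p from 0.0545 to 0.0785). In response genes, it was 7.20 for EGR1, -2.17 for SPRED3 and -5.26 for SPRY1 (edgeR adjusted p from 1.51e-05 to 0.0103).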

How the results depend on the processing

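Over 29 described log2 fold changes of ligands, 323 alternative values were computed: 301 kept the direction and the side of the threshold, 15 passed it where the reported value had not, 3 no longer passed and 4 reversed. The reversals were all of the difference between the lines for FGF18, which lay between -0.82 and 0.37 with a replicate left out. Of the counts of ligands called, that of NCI-H1581R went from 2 to 4 in a single model of all 8 libraries. All genes called went from 2743 to 4539 in that model. Without NCI-H1581R replicate 2, the log2 fold change in this line was 2.44 for FGF2 and 0.44 for FGF11. The count of ligands called in NCI-H1703R went from 1 to 2 with DESeq2 and to 3 with the replicate block. All genes called there went from 2683 to 3037 with DESeq2 and to 6357 with the block. Requiring at least 10 counts in every library left fewer ligands to test and gave 2 in place of 6 between the sensitive lines, 1 in place of 6 between the resistant variants and 1 in place of 3 for the difference between the lines. With this filter, and fewer genes tested, all genes called were 9087, 7095 and 2781, in place of 11444, 9564 and 2803. Between lines replicate differences correlated at -0.0217 to -0.388. For the resistant variants the block gave 7638 genes and a crossed pairing 11063, in place of 9564, and either gave 6 ligands. The block changed no other ligand call than those given for FGF2 and FGF7.

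Over all genes, calls in NCI-H1581R went from 2743 to 4539 in the single model, to 1793 at a threshold of 0.05 and to between 1122 (without NCI-H1581 replicate 2) and 5186 (without NCI-H1581R replicate 1) with a replicate left out. In NCI-H1703R they went from 2683 to 6357 with the replicate block, to 1730 in the single model, to 1640 at 0.05 and to between 274 (without NCI-H1703 replicate 2) and 1686 (without NCI-H1703R replicate 2). Calls between the resistant variants fell from 9564 to 6120 without NCI-H1703R replicate 1, and those of the difference between the lines from 2803 to 1571 without NCI-H1703 replicate 2. A variant with 1 library left was taken to vary like the other. The cause of these shifts was not tested. The log2 fold change of FGF19 in NCI-H1581R ranged from 0.80 to 6.36 with a replicate left out, that of FGF10 from 1.92 to 2.14 and that of FGF5 in NCI-H1703R from -9.13 to -7.76. Ligands under 10 counts, at this depth, allow no statement on a change.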

Other observations

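KRT5, a keratin of basal and squamous epithelium, was detected almost only in the second replicates, with 47, 41, 35 and 38 counts in NCI-H1581, NCI-H1581R, NCI-H1703 and NCI-H1703R against 1, 0, 1 and 0 counts in the first replicates. No ligand showed this pattern in all 4 variants.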
